A study of Mus musculus with 9 samples.

Results

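The clusters of miR-193 and miR-365 are a pair of related microRNA (miRNA) loci, and 7 mature miRNAs were taken from them by name out of the 1140 rows of a table of mouse liver miRNA counts. These were the rows whose names start with mmu-miR-193a-, mmu-miR-193b- or mmu-miR-365-. The hairpins Mir193a and Mir365-2 at one locus give 3 of the rows (mmu-miR-193a-5p, mmu-miR-193a-3p and mmu-miR-365-2-5p). The hairpins Mir193b and Mir365-1 at the other locus give 3 more (mmu-miR-193b-5p, mmu-miR-193b-3p and mmu-miR-365-1-5p). The remaining row, mmu-miR-365-3p, is made by both loci with 1 sequence, so its counts cannot be divided between them. The miRNAs were picked with their values in the control, TAA and recovery groups known. Their differences between the TAA group and the other groups are therefore given as a description. Where the fit across all rows called a member in these contrasts, the call is printed beside the share of all rows called, and nothing is read from it.

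The libraries came from whole livers of 9 male C57BL/6 mice that were 8 weeks old at the start, with 1 mouse per library. Control mice (n = 3) were given saline, TAA mice (n = 3) thioacetamide (TAA), a hepatotoxin that leads to liver fibrosis, by intraperitoneal injection every 3 days for 8 weeks. Recovery mice (n = 3) had the same TAA course and then 8 weeks without it. They were thus older when killed, and recovery and elapsed time cannot be told apart. Per the study's methods, control and TAA mice were killed a few days after the last injection. Recent TAA exposure and established fibrosis thus cannot be told apart in the TAA group. In a whole liver, fewer cells of a type and less of a miRNA per cell cannot be told apart either.

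A miRNA hairpin is cut into a duplex of a 5p and a 3p arm, and one of them is usually kept in the Argonaute protein while the other is degraded. The kept arm finds its target mRNAs mostly through its seed, a short stretch near its 5′ end. miR-193a-3p and miR-193b-3p are known as repressors of growth genes such as cyclin D1 and of the urokinase plasminogen activator. The locus of miR-193b and miR-365 has also been studied in brown fat.

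The hairpins are shown because they mark which products the loci share and which they do not. They come from RefSeq (GRCm38.p6), run 5′ to 3′, and have the mature arms of the table in capitals:
Mir193a: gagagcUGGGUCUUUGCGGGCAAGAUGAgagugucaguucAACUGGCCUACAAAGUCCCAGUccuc
Mir193b: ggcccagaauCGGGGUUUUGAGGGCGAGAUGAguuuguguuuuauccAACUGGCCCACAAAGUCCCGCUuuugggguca
Mir365-1: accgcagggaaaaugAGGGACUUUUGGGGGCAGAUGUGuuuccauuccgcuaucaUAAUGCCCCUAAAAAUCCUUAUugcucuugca
Mir365-2: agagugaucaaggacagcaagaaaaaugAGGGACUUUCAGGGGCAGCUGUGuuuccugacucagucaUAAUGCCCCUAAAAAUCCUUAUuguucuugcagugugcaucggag

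In the mature sequences below, the seed (bases 2 to 8 from the 5′ end) is in capitals. All 7 members were matched by name to RefSeq:
mmu-miR-193a-3p: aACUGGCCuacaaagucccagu
mmu-miR-193b-3p: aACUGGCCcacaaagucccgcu
mmu-miR-193a-5p: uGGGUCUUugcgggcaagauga
mmu-miR-193b-5p: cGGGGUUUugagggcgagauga
mmu-miR-365-3p: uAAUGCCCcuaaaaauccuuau
mmu-miR-365-1-5p: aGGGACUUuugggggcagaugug
mmu-miR-365-2-5p: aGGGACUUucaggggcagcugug

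The miR-193 3p arms share their seed, and no other of the 1679 mature mouse miRNAs in the RefSeq table has it. They are identical at 19 of 22 bases and differ, from miR-193a to miR-193b and counted from the 5′ end, by U9C, A20G and G21C. The miR-193 5p arms are identical at 17 of 22 bases, and 2 of their differences, U5G and C6U, lie within the seed. The miR-365 5p arms share a seed and 20 of 23 bases, with differences U10C, G11A and A19C from miR-365-1-5p to miR-365-2-5p. The seeds of mmu-miR-193a-5p, mmu-miR-193b-5p and mmu-miR-365-3p were each held by 1 of the 1679 sequences.

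On build GRCm38 (mm10), Mir193a lies on chromosome 11 from 79711969 to 79712034 and Mir365-2 from 79726400 to 79726511, both on the plus strand and 14365 bases apart. No other GENCODE gene overlaps them. Mir193b lies on chromosome 16 from 13449523 to 13449601 and Mir365-1 from 13453840 to 13453926, on the plus strand and 4238 bases apart. Both of these lie inside the antisense gene Gm15738, which is on the minus strand, and overlap none of its exons.

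**Figure D1:**
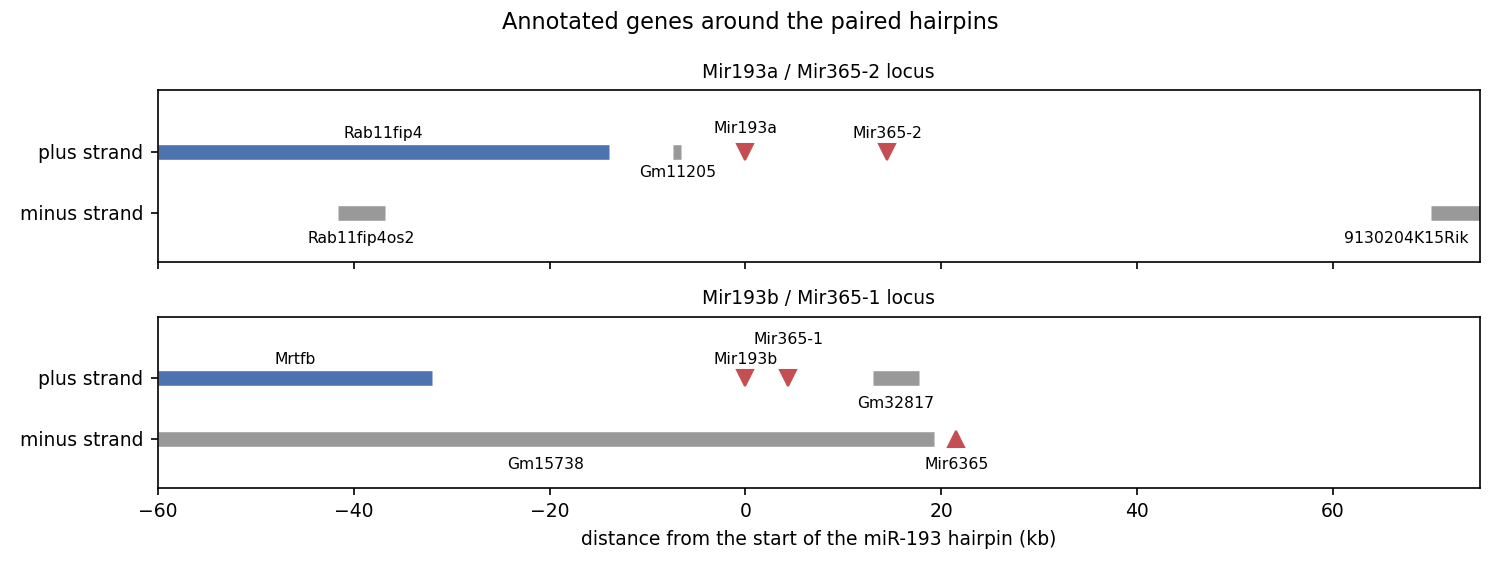
Annotated genes around the paired hairpins in GENCODE M21, with the distance from the start of the miR-193 hairpin in kb on the x axis and the strand on the y axis. Triangles are miRNA genes, blue bars protein-coding genes and grey bars non-coding genes. The hairpins of the Mir193b locus lie opposite Gm15738, whereas those of the Mir193a locus lie in an interval between genes.

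Libraries held 9071847 to 12983378 counts, and the 7 members together held 402 to 949 of these, so their values rest on few counts. Levels are given as counts per 1000000 (CPM) with library sizes scaled by TMM factors, which assume that most miRNAs do not change. The TMM factors were 1.43 to 1.63 in TAA libraries and 0.739 to 0.887 in the others, so values relative to library totals are set beside the main results. TAA replicate 3 stood apart, with a summed level of 4727 CPM for 3 muscle miRNAs against 8.76 to 49.1 CPM in the other 8 libraries. The fold changes with the TAA group and the ratios fixed for the loci are also given without it.

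Both arms of miR-193a were lower under TAA and overlapped the control values after recovery. mmu-miR-193a-5p, the more abundant arm, measured 13.4, 13.1 and 12.1 CPM in control mice 1 to 3, 3.52, 3.91 and 2.89 CPM in TAA mice, and 16.5, 11.8 and 9.71 CPM in recovery mice (replicates 1 to 3 throughout). The TAA values lay below all other values, on library totals as well. Compared with control, the log2 fold change under TAA was -1.99 (SE 0.21), and from TAA to recovery it was 1.85 (SE 0.28). mmu-miR-193a-3p measured 5.64, 4.22 and 3.19 CPM in control mice, 1.48, 1.62 and 1.01 CPM in TAA mice and 3.63, 5.97 and 3.48 CPM in recovery mice. Its TAA values were again the lowest, although on library totals they overlapped those of the control group. For this arm the log2 fold changes were -1.76 (SE 0.34) and 1.65 (SE 0.35) in the same comparisons.

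mmu-miR-365-3p, the product shared by both loci, was the most abundant member in every library. It measured 56.0, 51.7 and 66.5 CPM in control mice, 20.04, 15.9 and 16.2 CPM in TAA mice and 67.9, 62.8 and 51.8 CPM in recovery mice. The TAA values lay below those of both other groups on either scale. Its log2 fold changes were -1.83 (SE 0.16) in TAA vs control and 1.79 (SE 0.18) from TAA to recovery.

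mmu-miR-193b-3p, which has the seed of mmu-miR-193a-3p but comes from the other locus, differed in the opposite direction. It measured 1.75, 2.51 and 2.93 CPM in control mice, 4.995, 4.52 and 4.16 CPM in TAA mice and 1.28, 2.02 and 3.02 CPM in recovery mice. The TAA values were above all others on both scales. The log2 fold change in TAA vs control was 0.85 (SE 0.27), below a fold change of 2, and in recovery vs TAA it was -1.12 (SE 0.33). In raw counts, which still carry library depth and composition, the group sums of mmu-miR-193b-3p were 59, 210 and 67 in control, TAA and recovery. Those of mmu-miR-193a-3p were 114, 63 and 137.

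The strands in lower supply did not follow one pattern. mmu-miR-365-2-5p measured 2.43, 6.20 and 2.66 CPM in control mice, 1.97, 2.16 and 2.22 CPM in TAA mice and 2.46, 3.86 and 1.56 CPM in recovery mice. Its log2 fold changes were -0.90 (SE 0.41) and 0.29 (SE 0.37) in the comparisons above, and on library totals both turned sign, to 0.23 and -0.57. The median over all rows moved as well, from 0.11 to 1.23 and from -0.12 to -0.98, so the strand kept its side of the median. It was called in neither comparison. Without control replicate 2 it was at -0.35 in TAA vs control, and without recovery replicate 2 at -0.089 in recovery vs TAA. No direction is therefore given for this strand. mmu-miR-365-1-5p had 6, 4 and 9 counts in control mice, 18, 1 and 7 in TAA mice and 2, 7 and 3 in recovery mice, and these ranges overlapped. mmu-miR-193b-5p had between 0 and 4 counts in any library, near the limit of 3 counts that a count of 0 allows. The last 2 did not pass the filter on low counts. Fitted without that filter, they had log2 fold changes of -0.56 (mmu-miR-365-1-5p) and 0.52 (mmu-miR-193b-5p) in TAA vs control, and neither was called in any comparison.

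**Figure D2:**
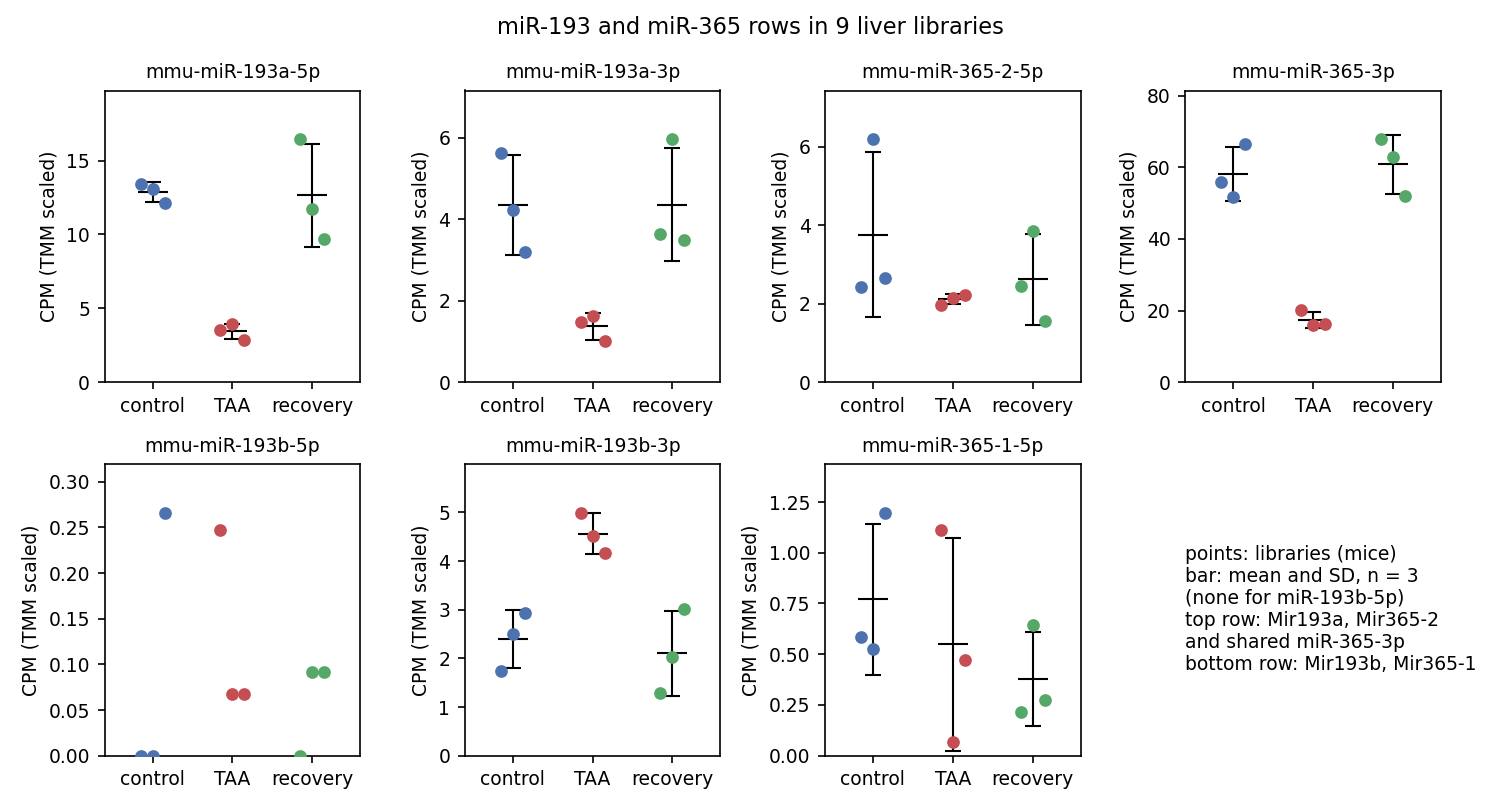
Level of each of the 7 members in each library, in CPM with TMM factors on the y axis and with the control, TAA and recovery groups on the x axis. Points are mice and bars the mean and SD (n = 3), left out for mmu-miR-193b-5p. TAA points of both miR-193a arms and of mmu-miR-365-3p lie below all others, and those of mmu-miR-193b-3p lie above.

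A miRNA was called differentially expressed (DEM) where edgeR gave an FDR below 0.05 with at least a 2-fold difference. Of the 5 members that passed the filter, 3 were called in TAA vs control, all lower in the TAA group (both miR-193a arms and mmu-miR-365-3p), where 41.7% of the 420 rows tested were called and 16.7% were called lower. In recovery vs TAA, 4 of 5 were called, 3 higher in the recovery group and mmu-miR-193b-3p lower, where 24.8% of all 440 rows tested were called, 10.2% higher and 14.5% lower. The groups of all 5 did not overlap in TAA vs control, and 66.7% of all rows tested did not overlap either. Members were picked on these contrasts, so nothing is read from the counts. At the fold change limit, mmu-miR-193b-3p was just inside in recovery vs TAA (-1.12) and just outside in TAA vs control (0.85). The former call was lost when any 1 of 5 of the 6 libraries was left out (log2 fold changes of -0.80 without recovery replicate 1, -1.06 without recovery replicate 2, -1.004 without TAA replicate 1, -1.05 without TAA replicate 2 and -1.16 without TAA replicate 3). In these 5 fits its FDR was 0.056 to 0.104 (edgeR). Only without recovery replicate 1 was the fold change below 2 as well. In TAA vs control mmu-miR-193b-3p was called without control replicate 3, at 1.002, and with scaling to 5 reference miRNAs, at 1.09, as it was on library totals. Its FDR there was 0.031 in the main fit (edgeR). The FDR was above 0.05 with DESeq2 (0.065), and in edgeR without the low-count filter (0.126) or with the replicate block (0.054). It was also above 0.05 in edgeR when any library other than control replicate 3 was left out (0.051 to 0.095).

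Without TAA replicate 3, the log2 fold change in TAA vs control was -1.56 for mmu-miR-193a-3p, -1.86 for mmu-miR-193a-5p, -1.77 for mmu-miR-365-3p and 0.93 for mmu-miR-193b-3p. In recovery vs TAA without this library it was 1.49, 1.77 and 1.76 for the first 3 and -1.16 for mmu-miR-193b-3p. mmu-miR-193b-3p thus lay opposite to the miR-193a arms and mmu-miR-365-3p without this library too. On library totals, the same differences were -0.65, -0.87 and -0.71, and 1.97 for mmu-miR-193b-3p, while the median over all rows was 1.23 on that scale and 0.11 with TMM. Relative to that median, the members kept their sides, but only 1 of them (mmu-miR-193b-3p) was called in TAA vs control on library totals, where 58.3% of the 420 rows were called, against 3 with TMM.

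**Figure D3:**
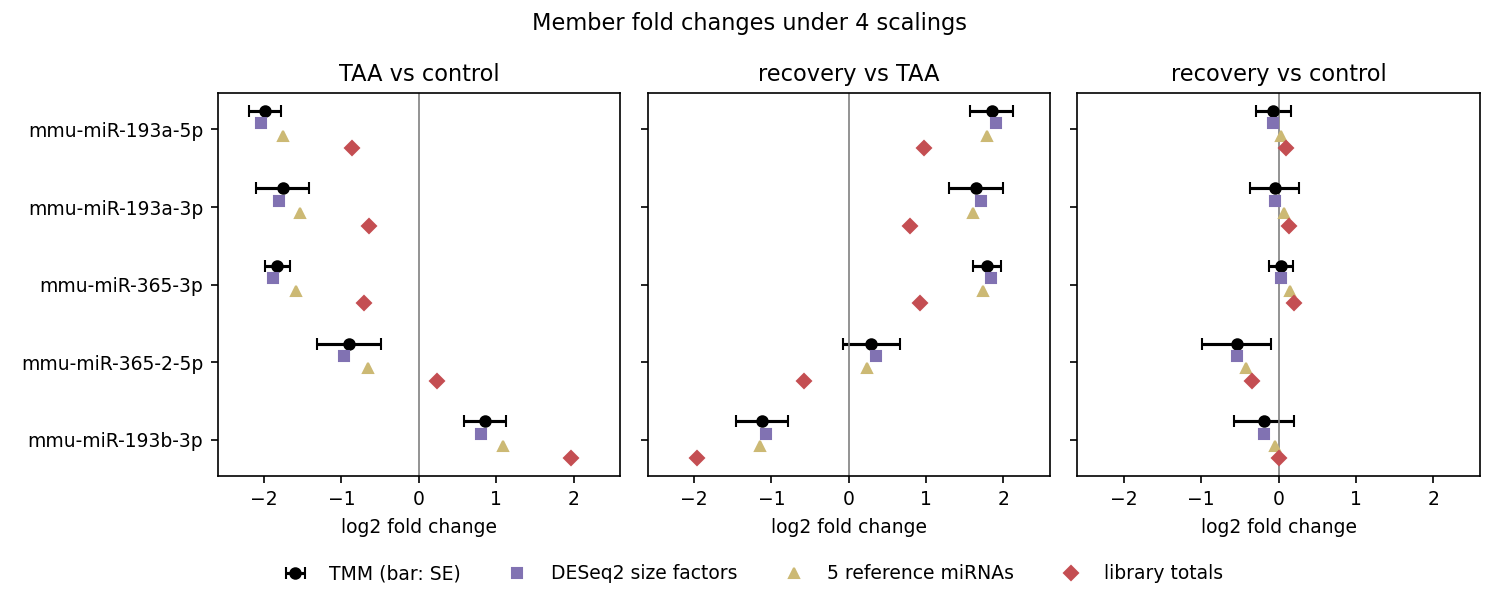
Log2 fold change of the 5 tested members (x axis) in each comparison under 4 ways of scaling the libraries. The vertical line marks 0 and not the median over all rows tested, which was 1.23 on library totals in TAA vs control. Both miR-193a arms and mmu-miR-365-3p lie below 0 and mmu-miR-193b-3p above 0 in TAA vs control under every scaling shown, whereas mmu-miR-365-2-5p changes sign on library totals.

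The loci were next compared within each library, where no scaling enters. mmu-miR-193a-3p made up 76.3% (95% Clopper-Pearson interval 65.2 to 85.3), 62.7% (48.1 to 75.9) and 52.2% (36.9 to 67.1) of the summed counts of mmu-miR-193a-3p and mmu-miR-193b-3p in control mice. In TAA mice the share was 22.9% (15.2 to 32.1), 26.4% (17.7 to 36.7) and 19.5% (11.3 to 30.1). In recovery mice it was 73.9% (58.9 to 85.7), 74.7% (64.3 to 83.4) and 53.5% (41.3 to 65.5). The miR-193a locus thus gave more than 50% of the counts with the miR-193 seed in each control and recovery library, with intervals that included 50% in control replicates 2 and 3 and recovery replicate 3. In each TAA library the miR-193b locus gave more, and all 3 intervals lay below 50%. These intervals cover counting error only, and the libraries had no molecular identifiers. The mean shares were 63.7% ± 12.1 (SD, n = 3), 22.9% ± 3.45 and 67.4% ± 12.0 in control, TAA and recovery. The log2 ratio of mmu-miR-193a-3p to mmu-miR-193b-3p was lower in the TAA group than in the control group by a difference of -2.62 (SE 0.48), a 6.13-fold lower ratio, and higher in recovery than in TAA by 2.85 (SE 0.47). Without TAA replicate 3 these differences were -2.47 and 2.71.

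The summed level of both miR-193 3p arms was 6.75 ± 0.634, 5.93 ± 0.678 and 6.47 ± 1.54 CPM in control, TAA and recovery mice (mean ± SD, n = 3). The differences between these means were near the spread within the groups. On library totals the means were 5.15 ± 0.635, 9.24 ± 0.816 and 5.52 ± 1.67 CPM, with the TAA group highest. Whether the sum differed in the TAA group thus depended on the scaling, whereas the share did not. Of all counts of the 7 members, mmu-miR-193b-3p took 2.90% in control, 15.5% in TAA and 2.68% in recovery mice.

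**Figure D4:**
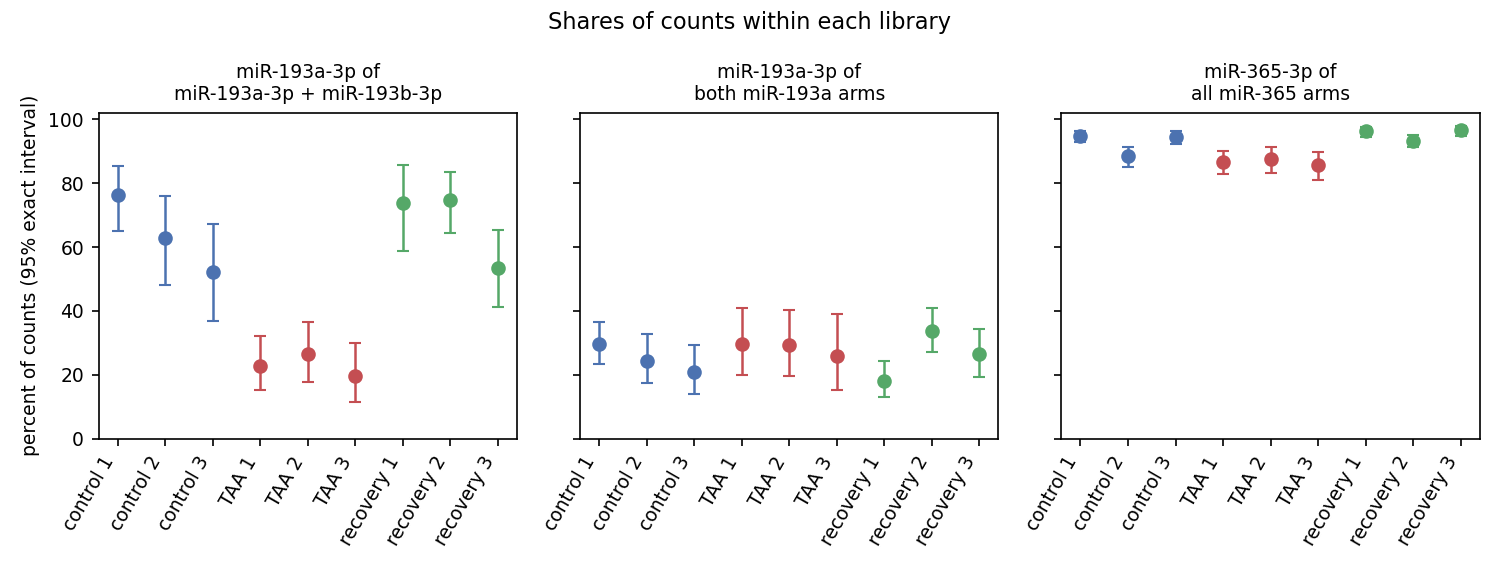
Shares of counts within each library, in percent on the y axis, with the 9 libraries on the x axis, for the miR-193 3p pair, the miR-193a arms and the miR-365 arms (panels from left to right). Points carry 95% Clopper-Pearson intervals for counting error. The share of mmu-miR-193a-3p in the miR-193 3p counts is between 19.5% and 26.4% in TAA libraries and above 50% in the other libraries.

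The ratio of mmu-miR-365-3p, the shared product, to the miR-193a arms overlapped between the TAA and control groups, whereas its ratio to mmu-miR-193b-3p did not. Its log2 ratio to mmu-miR-193a-5p differed between the TAA and control groups by 0.17 (SE 0.22), and that to mmu-miR-193a-3p by -0.08 (SE 0.38). The log2 ratio to mmu-miR-193b-3p differed by -2.70 (SE 0.20). The ratio of mmu-miR-365-3p to the summed miR-193 3p counts was 7.58, 7.69 and 10.9 in control mice, 3.10, 2.59 and 3.13 in TAA mice and 13.8, 7.86 and 7.97 in recovery mice. All TAA libraries were thus below all others, with a log2 difference of -1.55 (SE 0.19) in TAA vs control, or -1.60 without TAA replicate 3. The ratios of mmu-miR-365-3p to single miR-193 arms, and the ratios between miR-365 arms or with mmu-miR-365-2-5p, were chosen after the values were seen. How often ratios of other rows keep the TAA and control groups apart is not given here, so nothing is read from a lack of overlap. Of single rows, 66.7% did not overlap between these groups with TMM.

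The 3p arm of miR-365 took a smaller mean share of the miR-365 counts in the TAA group, a share looked at after the values were seen. mmu-miR-365-3p took 94.9%, 88.5% and 94.5% of all miR-365 counts in control mice, 86.7%, 87.7% and 85.8% in TAA mice and 96.2%, 93.3% and 96.6% in recovery mice. The 3 TAA libraries had the lowest shares. The 95% Clopper-Pearson interval of control replicate 2, 85.1 to 91.3, included all 3 TAA shares. Nothing is read from the order of the libraries. Set against the summed 5p arms, its log2 ratio was lower in TAA than in control (difference -1.05, SE 0.41) and higher in recovery than in TAA (1.72, SE 0.33). The log2 ratio of mmu-miR-365-2-5p to mmu-miR-193a-5p, products of the same locus, was higher in TAA than in control by 1.22 (SE 0.45). Of the 5p counts, mmu-miR-365-2-5p took 80.6% ± 11.6, 81.2% ± 16.5 and 87.6% ± 3.85 in control, TAA and recovery (SD, n = 3), so the 5p arm of the miR-193a locus was the more abundant one in each group.

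For miR-193a, the ratio of the arms overlapped between all groups. On the log2 scale the ratio of 3p to 5p was -1.24, -1.61 and -1.90 in control mice, -1.23, -1.26 and -1.49 in TAA mice and -2.16, -0.97 and -1.47 in recovery mice. The 5p arm was the more abundant one in all 9 libraries, as it was in the control group for 62 of the 110 hairpins with both arms measured. The difference in TAA vs control was 0.26 (SE 0.33), and 60 of the other hairpins had a larger absolute difference. In recovery vs control the difference was 0.05, with a 95% interval of -0.70 to 0.80 (limma, FDR 0.992), where 0% of the 110 hairpins were called and 5 had an unadjusted p below 0.05. For miR-193b the 3p arm was the more abundant one, with 91.7% to 100% of the counts of its hairpin in every library.

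**Figure D5:**
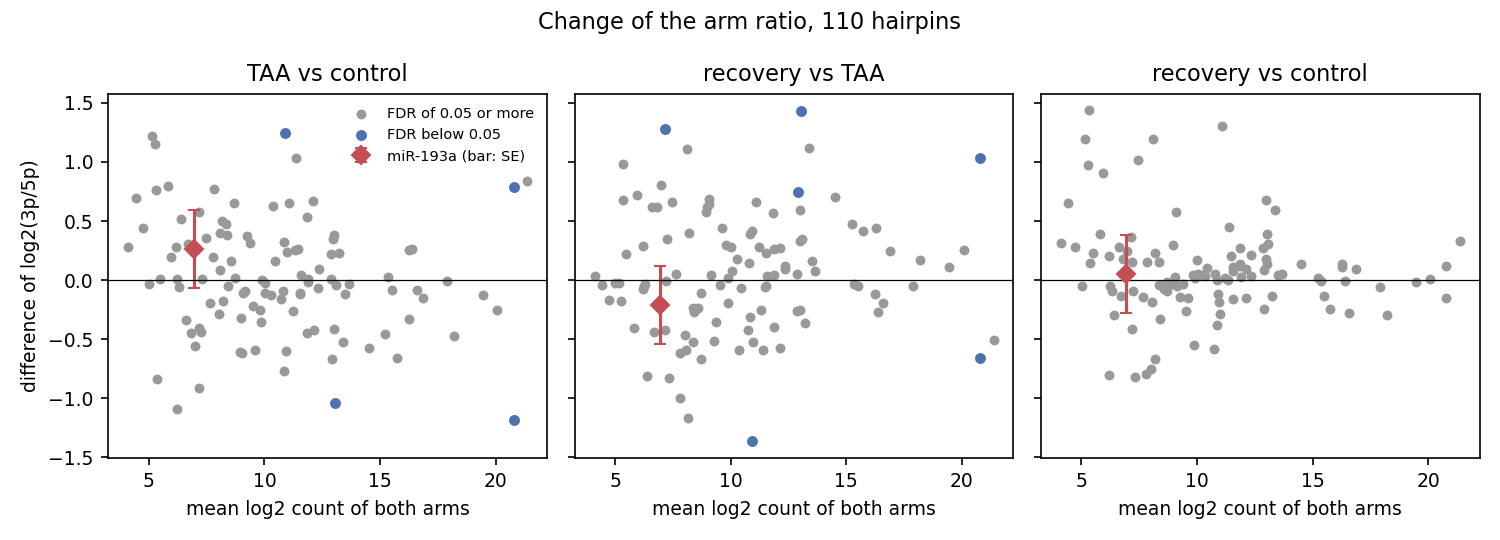
Difference of the log2 ratio of 3p to 5p counts for the 110 hairpins with both arms measured, in each comparison. Each point is a hairpin and miR-193a is marked. The miR-193a hairpin lies near 0 in the cloud of the other hairpins, at 0.26 in TAA vs control.

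Recovery vs control was fitted in the same way. Its values were also known when the members were picked, and miRNAs picked as lower under TAA and higher after it lie nearer to control by that choice, so the closeness of the groups is no independent evidence of a return. None of the 5 tested members was called (edgeR), none had an unadjusted p below 0.05, and 11.3% of all 391 rows tested were called. The log2 fold change was 0.03 for mmu-miR-365-3p (95% interval -0.31 to 0.37, FDR 0.957), -0.07 for mmu-miR-193a-5p (-0.57 to 0.43, FDR 0.932) and -0.05 for mmu-miR-193a-3p (-0.76 to 0.66, FDR 0.957). It was -0.19 for mmu-miR-193b-3p (-1.05 to 0.68, FDR 0.856) and -0.54 for mmu-miR-365-2-5p (-1.53 to 0.45, FDR 0.588). The intervals leave out a fold change of 2 in either direction for the first 3 and allow one for the last 2. DESeq2 called none of them either.

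Within libraries, the ratios of recovery and control mice overlapped, and 3 libraries against 3 cannot reach a p of 0.05. The log2 ratio of mmu-miR-193a-3p to mmu-miR-193b-3p differed by 0.23 (SE 0.63, exact two-sided permutation test, p = 0.9), and that of mmu-miR-365-3p to the summed miR-193 3p counts by 0.15 (SE 0.32, exact permutation p = 0.5). The largest difference, 0.68 (SE 0.52), was that of mmu-miR-365-3p to the summed 5p arms (exact permutation p = 0.3). All 7 ratios tested had an adjusted p of 0.9 (Benjamini-Hochberg), where the smallest p this test can give is 0.1.

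In the control group the order of the members by mean level was mmu-miR-365-3p (58.1 ± 7.63 CPM), mmu-miR-193a-5p (12.9 ± 0.675), mmu-miR-193a-3p (4.35 ± 1.23), mmu-miR-365-2-5p (3.76 ± 2.11) and mmu-miR-193b-3p (2.39 ± 0.597), followed by both rows below the filter. The last 3 of these 5 lay within their spread of each other or close to it. In the TAA group mmu-miR-193b-3p came second, at 4.56 ± 0.417 CPM, above mmu-miR-193a-5p (3.44 ± 0.518), mmu-miR-365-2-5p (2.12 ± 0.127) and mmu-miR-193a-3p (1.37 ± 0.321). The recovery group had the control order again. All members are 22 or 23 bases long, so length does not enter, but ligation can favour some sequences and its part in these orders was not tested.

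Of the 225 rows with a mean of at least 10 CPM, those most like mmu-miR-365-3p over the 9 samples were mmu-miR-30c-2-3p (Pearson r of log2(CPM + 1) 0.990), mmu-miR-455-3p (0.986), mmu-let-7a-5p (0.982), mmu-miR-139-5p (0.981) and mmu-miR-1948-5p (0.980). Such a profile was common, since 52 rows had an r of at least 0.9. The likeness of the other members was looked up after their values were seen. mmu-miR-193a-5p was most like mmu-miR-122-3p (0.990), an arm of the main hepatocyte miRNA, and 43 rows had an r of at least 0.9. For mmu-miR-193b-3p 2 rows did, mmu-miR-223-3p (0.910), a miRNA of myeloid cells, and mmu-let-7e-5p (0.907). Just under this limit came mmu-miR-132-5p (0.895), mmu-miR-218-5p (0.886) and mmu-miR-96-5p (0.883). mmu-miR-193b-3p had 18 to 22 counts per control library and 12 to 33 per recovery library. How far counting error lowered its correlations was not tested, so the numbers of rows are not compared between members. These correlations are between rows of the same 9 libraries, which fall into 3 groups, so they can largely reflect the group means. They serve as a description.

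Markers of liver cell types were counted in lists written with earlier results known, and they did not all follow 1 pattern. Of 12 hepatocyte miRNAs tested, 10 fell in TAA vs control and 0 rose (median log2 fold change -1.47 against 0.11 over all rows). Of all rows in that comparison, 16.7% were called lower and 25.0% higher. In recovery vs TAA 8 of the 12 rose, where 10.2% of all rows were called higher. In recovery vs control 0 were called, where 11.3% of all rows were. On library totals, where the median over all rows was 1.23, 0 of the 12 fell and 2 rose in TAA vs control, with a median of -0.35. Of all 420 rows, 241 were called higher and 4 lower on that scale. Their summed level was 534037 to 554643 CPM in control, 155752 to 185997 CPM in TAA and 443668 to 526132 CPM in recovery libraries. The log2 fold changes under TAA ran from -1.96 for mmu-miR-122-5p, the dominant miRNA of hepatocytes, through -1.52 for mmu-miR-101a-3p to 0.58 for mmu-miR-802-3p (edgeR, FDR 0.215). The values of the miR-193a arms and of mmu-miR-365-3p in TAA vs control, -1.76 to -1.99, were near the lowest of this list and below its median of -1.47. The members were picked on this contrast, so nothing is read from that nearness. Of 5 biliary miRNAs (the miR-200 family), 5 rose in TAA vs control, where 25.0% of all rows were called higher. In recovery vs TAA 5 fell, where 14.5% of all rows were called lower. In recovery vs control 1 was higher, where 41 of all 391 rows were called higher and 3 lower. The summed level of the biliary miRNAs was 582 to 764 CPM in control, 3332 to 5534 CPM in TAA and 1240 to 1415 CPM in recovery libraries. Of 5 stellate cell and myofibroblast miRNAs, 3 rose in TAA vs control and 3 fell in recovery vs TAA. The shares of all rows were 25.0% called higher in the former and 14.5% called lower in the latter. The summed level of these miRNAs nevertheless overlapped between groups (25480 to 31109, 18032 to 39505 and 21869 to 35800 CPM). Of 5 leukocyte miRNAs, 2 rose in TAA vs control and 1 fell in recovery vs TAA. With 5 miRNAs, these counts were near the same shares of all rows (25.0% and 14.5%), and nothing is read from them. The summed level of the leukocyte miRNAs was 189.9 to 211 CPM in control, 274 to 319 CPM in TAA and 146 to 222 CPM in recovery libraries. On library totals, where 241 of all 420 rows were called higher in TAA vs control, 5 of 5 biliary, 4 of 5 stellate cell and 5 of 5 leukocyte miRNAs were called higher. In recovery vs control 3 biliary miRNAs were higher on that scale, where 47 of all 391 rows were. Neither of 2 endothelial miRNAs was called in any comparison, and their summed level was 8477 to 8951 CPM in control, 5700 to 6895 CPM in TAA and 8347 to 9122 CPM in recovery libraries. Of 3 red cell miRNAs, 1 was lower under TAA than in control, where 16.7% of all rows were called lower. In recovery vs control 1 was lower, where 3 of all 391 rows were. The summed level of the red cell miRNAs was 789 to 1339, 206 to 461 and 329 to 622 CPM in the 3 groups. With 3 miRNAs, nothing is read from these counts. Of the muscle miRNAs 1 was lower in recovery vs TAA, where 14.5% of all rows were called lower, and without TAA replicate 3 that call was absent. Of 5 reference miRNAs, 0 were called in each comparison (medians of -0.29, 0.08 and -0.09), where 41.7%, 24.8% and 11.3% of all rows were. On library totals 2 were called higher in TAA vs control, where 241 of all 420 rows were. No marker row was at 0 throughout, and the part of cell composition in the differences of the miR-193 and miR-365 miRNAs was not tested.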

How the data were processed

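Per the labels and the study's methods, the authors prepared small RNA libraries with the NEBNext kit, sequenced them on an Illumina instrument as single-end reads and mapped them with Bowtie (1.3.0, per the submitters' processing notes) to mm10 and miRBase. The deposited table held a raw read count per mature miRNA and sample and a TPM value, which the authors derived from it and which equalled the count per 1000000 of the column total within 5.0e-05. Mismatch settings, the treatment of multi-mapped reads and the use of strand are not given in the sources used here. Cross-assignment between the similar miR-193 3p arms, or between the miR-365 5p arms, was not tested.

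The deposited counts were compared with edgeR (4.0.16, R 4.3.3) between the 6 samples of each pair of groups, with filterByExpr (minimum count 10), TMM factors and the test of glmQLFTest, and p-values were adjusted with Benjamini-Hochberg over all rows tested. The log2 ratio of the arms, with 0.5 added to each count, was fitted with limma (3.58.1) over all 9 samples for hairpins with a mean of at least 10 counts per arm. Ratios within a library were compared with exact permutation tests. Scripts were tested on simulated data. Alternatives were DESeq2 (1.42.0), other scalings and filters, a fit of all 9 samples, the replicate block and the removal of each replicate. No libraries agreed within sampling noise.

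Members were named by the name rule. Other miRNAs named were the 5 most like the members with a mean of at least 10 CPM, which left mmu-miR-365-3p alone to set the profile, and of the hepatocyte list the lowest, median and highest log2 fold change in TAA vs control. TAA replicate 3 and the rows most like single members were named after their values were seen. The members and all lists (hepatocyte, reference, stellate cell, biliary, leukocyte, endothelial, red cell and muscle miRNAs) were chosen with earlier results of these data known. Hairpin positions are from GENCODE M21, and mature and hairpin sequences from RefSeq.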

Additional observations from a re-analysis of the deposited data

How the results depend on the processing

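The directions of both miR-193a arms, mmu-miR-365-3p and mmu-miR-193b-3p between TAA and both other groups held under every alternative run, with log2 fold changes in TAA vs control of -1.81 to -0.65 (mmu-miR-193a-3p), -2.04 to -0.87 (mmu-miR-193a-5p), -1.88 to -0.71 (mmu-miR-365-3p) and 0.80 to 1.97 (mmu-miR-193b-3p) over the alternatives that kept all samples. Counts of calls moved more. With a mean of at least 10 CPM required, 80 rows were called between TAA and control, 61 between recovery and TAA and 13 between recovery and control, against 175, 109 and 44, and 1 member in each of the first 2, since mmu-miR-365-3p was then the only member tested in both. On library totals 207 of the 440 rows tested were called in recovery vs TAA, and 58.3% of 420 rows in TAA vs control. There 1 member was called in each of TAA vs control and recovery vs TAA, against 3 and 4 members with TMM. With the FDR alone 172 rows were called in recovery vs TAA. Rows called higher and lower in TAA vs control were 105 and 70 with TMM, 241 and 4 on library totals, 100 and 81 with the size factors of DESeq2, and 115 and 49 with 5 reference miRNAs. mmu-miR-365-2-5p turned sign on library totals (0.23 under TAA against control, -0.57 in recovery against TAA), and with 1 library left out it ranged from -0.089 (without recovery replicate 2) to 0.61 in recovery vs TAA and from -1.15 to -0.35 (without control replicate 2) in TAA vs control. Differences in recovery vs control lay near 0 and turned sign in several settings. On library totals they were 0.14 for mmu-miR-193a-3p, 0.099 for mmu-miR-193a-5p and 0.0091 for mmu-miR-193b-3p, with 5 reference miRNAs 0.067 and 0.036 for the miR-193a arms, and 0.00051 for mmu-miR-193a-5p with at least 10 CPM. With 1 library left out at a time, they ranged from -0.32 to 0.19 (mmu-miR-193a-3p), -0.28 to 0.075 (mmu-miR-193a-5p), -0.56 to 0.081 (mmu-miR-193b-3p), -0.072 to 0.12 (mmu-miR-365-3p) and, for mmu-miR-365-2-5p, from -0.91 (without recovery replicate 2) to -0.017 (without control replicate 2). The arm ratio difference of miR-193a then ranged from -0.49 to 0.10 in recovery vs TAA and from -0.23 to 0.37 in recovery vs control, and the log2 ratios in recovery vs control from -0.13 to 0.68 (mmu-miR-193a-3p to mmu-miR-193b-3p) and from -0.12 to 0.32 (mmu-miR-365-3p to the summed miR-193 3p counts). Hairpins called by arm ratio ranged from 1 to 5 in TAA vs control (4 with all libraries), lowest without TAA replicate 2, from 1 to 6 in recovery vs TAA, lowest without recovery replicate 3, and from 0 to 1 in recovery vs control. The replicate numbers were not treated as pairs. Same-numbered libraries of different groups did not all deviate together (correlations of -0.36 to 0.37). With 3 libraries per group, these values cannot settle whether the numbers mark a shared batch. The replicate block left the filter, and so the 420, 440 and 391 rows tested, unchanged. With it 178, 106 and 44 rows and 3, 4 and 0 members were called in the 3 comparisons. In recovery vs TAA 3 hairpins were called by arm ratio, against 6, and no call of a member changed. Nothing is read from the member counts. The causes of these shifts were not tested. Counts per library were low, so members below about 5 CPM have wide intervals, and mmu-miR-193b-5p and mmu-miR-365-1-5p were compared only without the filter on low counts.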
